A study of Mus musculus with 7 samples.

Results

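Islets hold several endocrine cell types beside the β-cell, and 9 genes that mark them were followed in RNA-seq libraries of sorted β-cells. They are 5 hormone genes, Gcg, Sst, Ppy, Pyy and Ghrl, and 4 transcription factor genes, Irx1, Irx2, Hhex and Pou3f4. The members were chosen by symbol, and all 9 were found among the 35013 gene symbols of the count table. The 7 libraries, 1 per mouse, came from 2 Aldh1a3 KO_db/db mice, 2 db/db control mice and 3 db/+ lean control mice. db/db mice lack a working leptin receptor and become obese and diabetic, while db/+ mice carry a single mutant copy and stay lean. KO_db/db mice are db/db mice in which a Cre driven by the rat insulin promoter (RIP-Cre Herr) deletes both floxed copies of Aldh1a3, an aldehyde dehydrogenase that appears in failing β-cells. Per the study's text, db/db and db/+ controls carry the same Cre, the tdTomato reporter (tdT fl/+, which KO_db/db mice carry too) and 1 floxed copy of Aldh1a3 (fl/+), so no group is free of Cre. All mice were fasted before islets were isolated, and the labels give no age for single mice.

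In the adult islet, α-cells secrete glucagon, which raises blood glucose, and δ-cells secrete somatostatin, which restrains both insulin and glucagon release. PP-cells secrete pancreatic polypeptide, and the rare ε-cells make ghrelin. Each type is kept apart by its own transcription factors, with Irx1, Irx2 and Pou3f4 active in α-cells and Hhex required in δ-cells, whereas mature β-cells keep these programmes silent. Transcripts of other hormones in a β-cell sort can be carried by other islet cells or by β-cells themselves, and a bulk library does not separate these.

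Upstream sequences of the 4 abundant hormone genes are shown first, because these genes carry most of the signal described here. They are from RefSeq on GRCm38.p6, which held upstream sequence for 8 of the 9 members (not Irx1), and are printed 5′ to 3′ on the minus strand, ending at the RefSeq start of the gene for Gcg, Ppy and Pyy. Capitals mark TATAAA, the TATA box, and TGACGTCA, the cAMP response element, both searched on either strand. For Sst 30 bases around the cAMP response element are given. They lie inside the gene as GENCODE M21 draws it, since its start is farther upstream than the RefSeq start. In that annotation of GRCm38, all 4 genes are on the minus strand, with Gcg (ENSMUSG00000000394.15) at chr2:62474530-62483650, Sst (ENSMUSG00000004366.4) at chr16:23889573-23890958, Ppy (ENSMUSG00000017316.13) at chr11:102099930-102101319 and Pyy (ENSMUSG00000017311.15) at chr11:102106676-102107832. Of the factors, Irx1 is at chr13:71957921-71963723, Irx2 at chr13:72628820-72634198, Hhex at chr19:37434810-37440731 and Pou3f4 at chrX:110814280-110817207, and Ghrl is at chr6:113716119-113719880.

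Gcg, chr2:62483654-62483803: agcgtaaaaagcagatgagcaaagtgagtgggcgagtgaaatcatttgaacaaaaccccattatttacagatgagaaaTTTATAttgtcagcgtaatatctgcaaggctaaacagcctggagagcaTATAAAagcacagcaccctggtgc
Sst, chr16:23890874-23890903: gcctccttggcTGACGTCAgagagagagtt
Ppy, chr11:102101320-102101469: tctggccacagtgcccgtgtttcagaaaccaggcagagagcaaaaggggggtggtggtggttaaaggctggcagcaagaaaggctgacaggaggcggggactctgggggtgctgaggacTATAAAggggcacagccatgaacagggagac
Pyy, chr11:102107833-102107982: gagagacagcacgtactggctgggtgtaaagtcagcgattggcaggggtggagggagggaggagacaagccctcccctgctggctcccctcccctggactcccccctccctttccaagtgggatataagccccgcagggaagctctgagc

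TGACGTCA was found in Sst only among these 4 genes, 48 bases before the RefSeq start, and 1.36% of 32817 RefSeq windows of the same 150 bases held it. TATAAA was found 24 bases before the start of Gcg, which also holds it on the other strand, and 31 bases before the start of Ppy, and 7.58% of all windows held it. These matches describe the letters and were not tested as binding sites.

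Library totals lay between 27496645 and 35852785 counts, and levels are given in counts per 1000000 counts (CPM), scaled with edgeR's TMM factors. The floor of detection was set at 3 counts, equal to 0.0721 to 0.123 CPM depending on the library. The deleted gene Aldh1a3 had 4.93 and 7.90 CPM in KO_db/db, 99.3 and 195 CPM in db/db and at most 0.584 CPM in db/+. Ins2, the main insulin gene of the mouse, had between 151165 and 287244 CPM, and 8 of the 9 members were above the floor in at least 1 library. The db/+ library of mouse 3 stands apart from its group, and both KO_db/db libraries held far more acinar message than any other, most of all mouse 1. Acinar message therefore cannot be told apart from the KO_db/db group. The 20 pancreatic acinar markers summed to 119476 CPM in KO_db/db mouse 1 and 10167 CPM in mouse 2, and to between 80.2 and 309 CPM in the other libraries. The db/+ library of mouse 3 had 2911 counts of 4 Y-linked genes, against 20 to 79 in each other library. The same library had 45.0 CPM of the endothelial gene Pecam1, against 5.33 to 10.5 CPM in the others. Where leaving out a library changed the call of a member, that value is given.

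Differences were tested with edgeR's quasi-likelihood test and Benjamini-Hochberg adjustment over all genes, and are log2 fold changes with their standard error (SE). Few members passed. Between KO_db/db and db/db, 7 members could be tested and 0 were called, beside 0.319% of 13486 genes (0.126% higher and 0.193% lower). Of these 7, 3 (Sst, Hhex and Pyy) had an unadjusted p under 0.05, as did 2814 of the 13486 genes, and DESeq2 called 2 (Sst and Pyy) among 1401 genes it called in all. Both KO_db/db libraries were above both db/db libraries for 5 of the 7 (Gcg, Sst, Ppy, Pyy and Hhex) and below them for 0, beside 27.3% and 30.2% of all genes tested. For db/db against db/+, 1 of 6 tested members was called lower (Sst) and 0 higher, beside 18% and 19.9% of 13406 genes, or 37.8% in both directions. The groups did not overlap for 1 higher member (Irx2) and 1 lower (Sst), beside 33.3% and 29.9% of genes. For KO_db/db against db/+, 1 of 6 was called higher (Irx2) and 0 lower, beside 20.5% and 17.9% of 13228 genes, or 38.4% in both directions. There 2 members lay above db/+ without overlap (Ppy and Irx2) and 0 below, beside 31.7% and 32.3% of genes. With 2 mice against 2, an exact two-sided permutation test of a single gene cannot go below p = 0.333, and with 2 against 3 not below 0.2. All 3 comparisons share libraries pairwise, so they are not independent of each other.

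The RNA of sorted db/db β-cells held less somatostatin message than that of lean β-cells. Sst, which encodes somatostatin, had 2274, 725 and 364 CPM in db/+, 164 and 83.0 CPM in db/db, and 626 and 500.4 CPM in KO_db/db. Both db/db libraries were below every other library, and the KO_db/db libraries lay within the wide range of db/+. From db/+ to db/db the log2 fold change was -3.21 (SE 0.82, edgeR adjusted p = 0.0219). The call was lost without either db/db library, with an edgeR adjusted p of 0.0519 without mouse 1 and 0.103 without mouse 2, each of which leaves a lone db/db library assumed to vary like db/+. It held without db/+ mouse 1, the library with the highest Sst, at a log2 fold change of -2.17 (edgeR adjusted p = 0.0215), and over all 12 alternatives the adjusted p lay within 0.000163 to 0.103.

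Comparing KO_db/db with db/db, Sst differed by 2.21 on the log2 scale, or 4.61-fold (SE 0.36, edgeR adjusted p = 0.0866), and did not pass 0.05. DESeq2 (adjusted p = 1.88e-10) and the edgeR fit without a filter on low counts (adjusted p = 8.29e-06) called it, while the other 9 alternatives did not (adjusted p up to 0.139). Without KO_db/db mouse 1, the library with the most acinar message, the log2 fold change was 2.03. Relative to db/+, KO_db/db had a log2 fold change of -0.98 (SE 0.70, edgeR adjusted p = 0.305), which turned to 0.0538 without db/+ mouse 1.

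**Figure D1:**
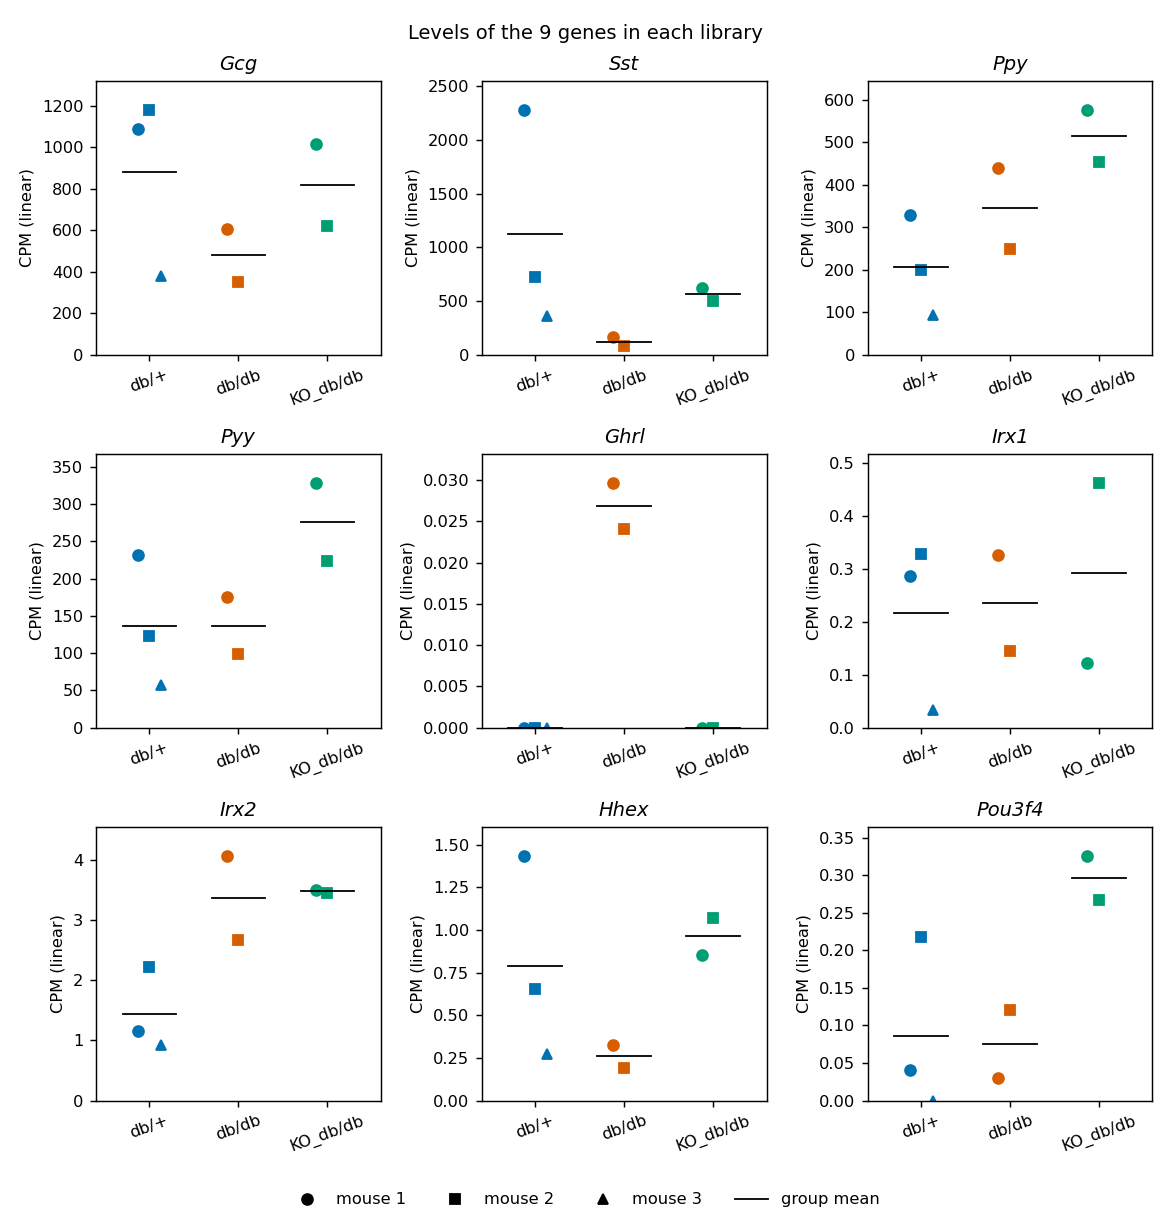
Level in CPM on a linear axis that starts at 0 for each of the 9 genes, with 1 point per library, the symbol giving the mouse number and the black line the mean of the group. Gcg, Sst, Hhex and, by small margins, Pyy and Pou3f4 have their lowest mean in db/db, and Pou3f4 had at most 11 counts in a library. Irx2 is higher in db/db and KO_db/db than in any db/+ library, and the Ghrl axis spans 1 count.

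Hhex, the homeobox factor of the δ-cell, was sparse and had the same order of libraries as Sst within db/+ and within db/db. It had 35, 18 and 8 counts in db/+, 11 and 8 in db/db, and 21 and 44 in KO_db/db, or 1.43, 0.655 and 0.275 CPM, 0.326 and 0.192 CPM, and 0.855 and 1.07 CPM. The KO_db/db libraries were above those of db/db, and db/+ overlapped with both groups. The log2 fold change was 1.91 between KO_db/db and db/db (SE 0.62, edgeR adjusted p = 0.185), -1.62 in db/db against db/+ (SE 0.83, edgeR adjusted p = 0.171) and 0.31 in KO_db/db against db/+ (SE 0.70, edgeR adjusted p = 0.749). None of the alternatives listed under the processing called Hhex in these comparisons.

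The other δ-cell markers were read beside them. Rbp4, a retinol carrier abundant in δ-cells, had 56.4, 38.6 and 13.4 CPM in db/+, 6.13 and 4.59 CPM in db/db, and 19.6 and 16.9 CPM in KO_db/db. It fell from db/+ to db/db by 2.78 on the log2 scale (SE 0.58, edgeR adjusted p = 0.0110), and KO_db/db over db/db gave a log2 fold change of 1.78 (SE 0.22, edgeR adjusted p = 0.0676). Ghsr, the ghrelin receptor that δ-cells display, had between 0.344 and 1.80 CPM in db/+, 0.178 and 0.168 in db/db, and 0.692 and 1.90 in KO_db/db. Ffar4, a fatty acid receptor, and Spock3, a matrix proteoglycan, were also lower on average in db/db than in both other groups. Casr, the calcium-sensing receptor, went the other way with 96.3 and 92.4 CPM in db/db against 44.7 to 74.1 CPM in db/+, and it rose there (log2 fold change 0.71, adjusted p = 0.0385 from edgeR). In all, 2 of the 7 δ-cell markers were called lower and 1 higher in db/db against db/+, beside 18% and 19.9% of all genes. Taken in both directions, 37.8% of all genes tested were called there. The 7 markers had a median of -2.22 on the log2 scale, beside 0.01 over all genes tested. Between KO_db/db and db/db edgeR called 0 of the 7 (among the members on it, DESeq2 called Sst), the median was 1.91 and that of all genes -0.02.

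Among the db/+ libraries, 5 of the 7 markers (Sst, Hhex, Rbp4, Ghsr and Spock3) were highest in mouse 1. In mouse 3, the library with the most Y-linked counts (2911), 6 were lowest. Because these are bulk libraries, fewer δ-cells and less message per cell cannot be told apart in any of these differences.

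**Figure D2:**
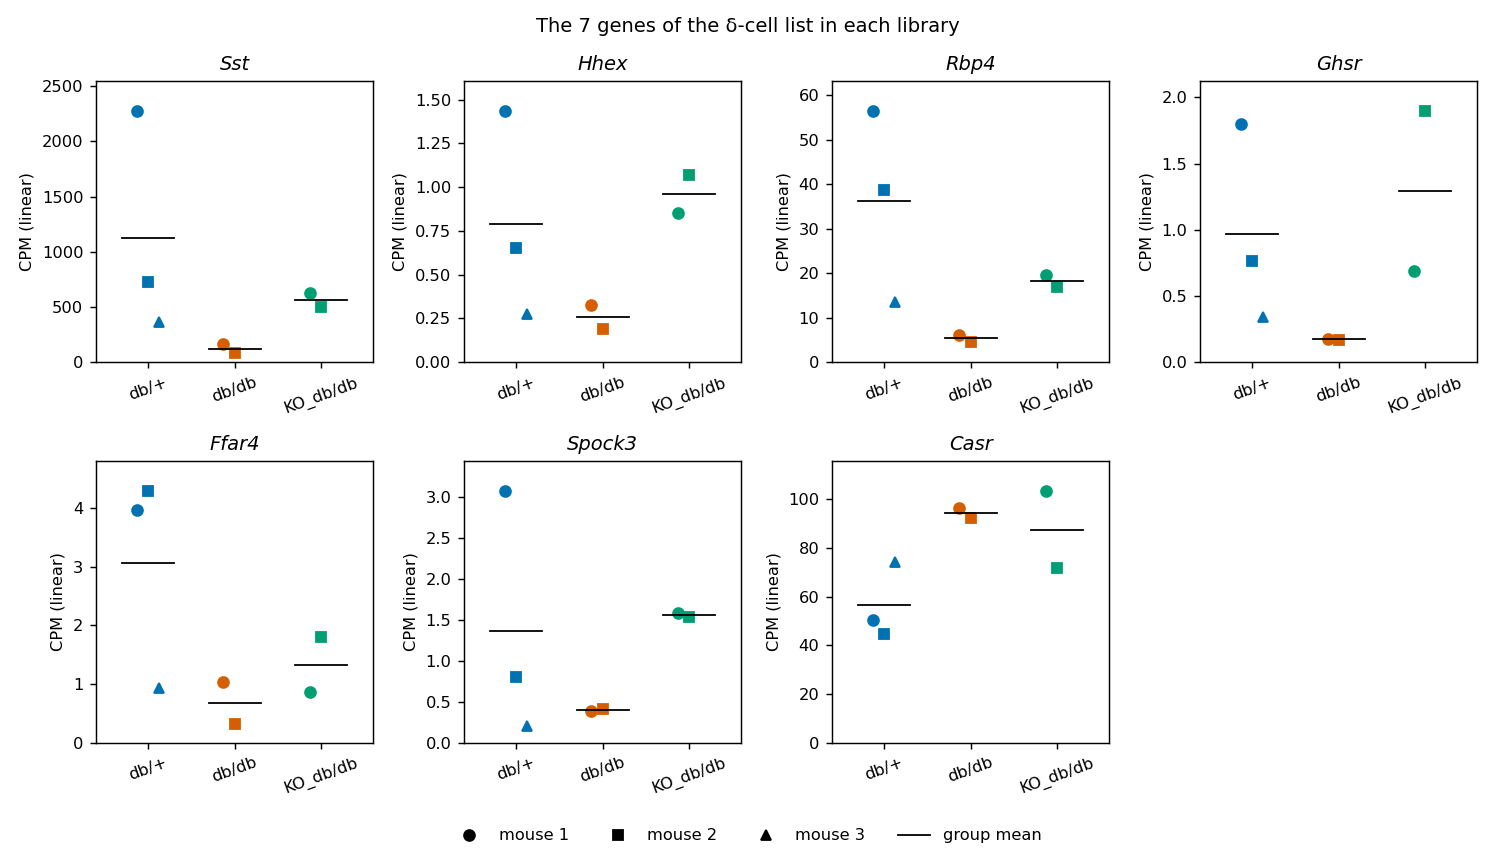
Levels in CPM, on linear axes from 0, of the 7 genes of the δ-cell list in each library, with the mouse number as the symbol and the group mean as a line. Both db/db libraries are below all others for Sst, Rbp4 and Ghsr, and above all db/+ libraries for Casr.

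Glucagon message differed little between the groups compared with its spread. Gcg had 1088, 1178 and 378 CPM in db/+, 608 and 351 CPM in db/db, and 1017 and 620 CPM in KO_db/db. The db/+ group alone spanned nearly the whole range, since its mouse 3 was lower than 5 of the other 6 libraries. The log2 fold change was -0.90 from db/+ to db/db (SE 0.49, edgeR adjusted p = 0.186), 0.79 between KO_db/db and db/db (SE 0.37, edgeR adjusted p = 0.296) and -0.10 in KO_db/db against db/+ (SE 0.48, edgeR adjusted p = 0.890). Without db/+ mouse 3 the value for db/db was -1.26 and passed (edgeR adjusted p = 0.0194), and the range of the adjusted p over its 12 alternatives was 0.00845 to 0.511. Relative to insulin, Gcg gave 29.3, 31.3 and 9.20 counts per 10000 counts of Ins1 and Ins2 in db/+, 30.8 and 19.7 in db/db, and 37.3 and 30.4 in KO_db/db. Insulin counts were lower in db/db and KO_db/db than in db/+, which by itself raises this ratio there.

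Irx2, an Iroquois homeobox gene of the α-cell, did not follow Gcg. Its level was 1.15, 2.22 and 0.928 CPM in db/+, 4.06 and 2.67 CPM in db/db, and 3.50 and 3.45 CPM in KO_db/db. All 4 libraries on the db/db background were above all 3 db/+ libraries, and KO_db/db lay between the 2 db/db libraries. Irx2 rose in KO_db/db against db/+ by 1.28 on the log2 scale (SE 0.42, edgeR adjusted p = 0.0491). The call was lost without KO_db/db mouse 1, KO_db/db mouse 2, db/+ mouse 1 or db/+ mouse 3 (edgeR adjusted p between 0.0923 and 0.146), with the log2 fold change between 1.05 and 1.75 over the fits without 1 library. For db/db over db/+ the log2 fold change was 1.20 (SE 0.44, edgeR adjusted p = 0.0728), and 4 of 12 alternatives called it, among them the fit without db/+ mouse 2 (1.67, edgeR adjusted p = 0.0365). The value for KO_db/db over db/db was 0.06 (SE 0.33, edgeR adjusted p = 0.929) and took either sign across the alternatives.

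Irx1, which lies 665096 bases from Irx2 on chromosome 13 of GRCm38, was close to the floor. It had 7, 9 and 1 counts in db/+, 11 and 6 in db/db, and 3 and 19 in KO_db/db. The 2 KO_db/db libraries were the lowest but 1 and the highest of the 7, and the exact 95% Poisson intervals of their counts, 0.619 to 8.77 and 11.4 to 29.7, did not meet. The intervals cover counting error only. Irx1 passed the filter on low counts only in KO_db/db against db/db, with a log2 fold change of 0.39 (SE 0.91, edgeR adjusted p = 0.830) that changed sign without KO_db/db mouse 2 or db/db mouse 2.

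Pou3f4, the POU factor that binds the glucagon promoter, had 1, 6 and 0 counts in db/+, 1 and 5 in db/db, and 8 and 11 in KO_db/db. Both KO_db/db libraries held more than any other, at 0.326 and 0.267 CPM against at most 0.218 CPM. The exact 95% Poisson intervals of their counts were 3.45 to 15.8 and 5.49 to 19.7. Both overlapped with that of db/+ mouse 2, 2.20 to 13.1, so these counts were not separated beyond counting error. It passed the filter in no comparison, so it was not tested.

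The list of 13 α-cell markers, which holds these genes and Gcg, did not move together. For db/db over db/+, 4 of its 11 tested genes were called higher (Slc38a5, Gc, Etv1 and Ttr) and 2 lower (Sphkap and Slc7a2). Of all genes tested there, 19.9% were called higher and 18% lower. The median of the list was 0.83 on the log2 scale, beside 0.01 for all genes. Against db/+, KO_db/db had 5 called higher, among them Slc38a5, Gc, Irx2 and Etv1, and 1 lower (Slc7a2), beside 20.5% and 17.9% of genes. Here the median was 0.06 beside 0.00 for all genes. Between KO_db/db and db/db edgeR called 0 of 12, 5 had positive fold changes, and the median was -0.32 beside -0.02 for all genes.

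The markers that rose in db/db had these levels. Ttr, transthyretin, which β-cells also make, had 502 to 674 CPM in db/+, 1925 and 1727 CPM in db/db, and 611 and 550 CPM in KO_db/db. Gc, the vitamin D binding protein, had 62.1 to 126 CPM in db/+, 681 and 741 CPM in db/db, and 294 and 204 CPM in KO_db/db. Slc38a5, the amino acid transporter that α-cells use in response to raised amino acids, had 1.61 to 2.09 CPM in db/+, 28.8 and 20.5 CPM in db/db, and 10.02 and 6.54 CPM in KO_db/db. Gc and Slc38a5 did not overlap between the 3 groups, whereas Ttr in KO_db/db lay within the range of db/+. Over all genes tested, db/db lay above db/+ without overlap for 33.3% and KO_db/db above db/+ for 31.7%. KO_db/db lay below db/db for 30.2%, and the share of genes that separate all 3 groups was not counted.

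By CPM, pancreatic polypeptide message was highest in KO_db/db. Ppy had 329, 199 and 93.2 CPM in db/+, 439.6 and 249.8 CPM in db/db, and 575 and 454 CPM in KO_db/db. On this scale both KO_db/db libraries were above the 5 others, while db/db and db/+ overlapped. Per 10000 counts of Ins1 and Ins2, Ppy gave 8.88, 5.29 and 2.27 counts in db/+, 22.2 and 14.0 in db/db, and 21.0 and 22.2 in KO_db/db. By that ratio KO_db/db and db/db overlapped, and both were above all db/+ libraries. The insulin counts it is divided by were themselves lower than in db/+. Ins1 had a log2 fold change of -1.87 in db/db and -0.83 in KO_db/db, and Ins2 of -0.83 and -0.63. A steady message would therefore also rise by this ratio. For KO_db/db over db/+ the log2 fold change was 1.32, or 2.50-fold (SE 0.45, edgeR adjusted p = 0.0574), and 4 of 12 alternatives called it, with adjusted p from 0.00653 to 0.204. Among these were the fits without db/+ mouse 1 (1.82, edgeR adjusted p = 0.0220) and without db/+ mouse 3 (0.97, edgeR adjusted p = 0.0393). It was 0.59 between KO_db/db and db/db (SE 0.31, edgeR adjusted p = 0.339) and 0.71 from db/+ to db/db (SE 0.48, edgeR adjusted p = 0.287).

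Pyy, which encodes peptide YY, a relative of pancreatic polypeptide, lies 5356 bases from Ppy on chromosome 11, and the upstream sequences of both are printed above. Its level was 231, 123 and 57.0 CPM in db/+, 175 and 99.3 CPM in db/db, and 328 and 224 CPM in KO_db/db. The db/db libraries lay within the range of db/+, and the KO_db/db libraries were above db/db. The log2 fold change was 1.03 between KO_db/db and db/db (SE 0.33, edgeR adjusted p = 0.187), where DESeq2 (adjusted p = 0.0113) and the fit without a filter (edgeR adjusted p = 0.00979) called it. It was 1.02 for KO_db/db over db/+ (SE 0.51, edgeR adjusted p = 0.154), where 3 of 12 alternatives called it, among them the fit without db/+ mouse 1 (1.62, edgeR adjusted p = 0.0319). From db/+ to db/db it was -0.03 (SE 0.53, edgeR adjusted p = 0.973) and turned to 0.578 without db/+ mouse 1. The third gene of the PP-cell list, Vsig1, stayed between 0.118 and 0.649 CPM and was not called, like the 2 members on the list.

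No 31-base word of the annotated transcripts of Gcg, Sst, Ppy or Pyy occurs in a transcript of another gene of GENCODE M21, so counts of Ppy were not shared with Pyy at that word length. For Irx1, Irx2, Hhex and Pou3f4 the shared words were between 0.154% and 1.35%, and for Ghrl 12%.

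Ghrl, the gene of ghrelin, was not detected. It had 1 count in each db/db library and 0 in the 5 others, all under the floor of 3 counts, which is at most 0.123 CPM. It passed the filter in no comparison. Mboat4, the enzyme that acylates ghrelin, had at most 0.163 CPM.

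**Figure D3:**
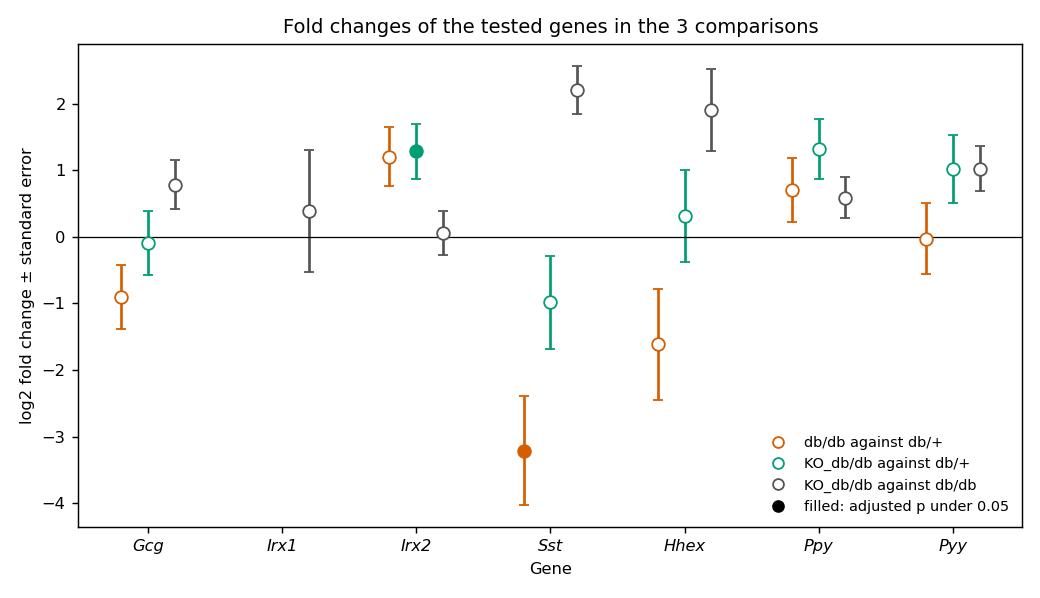
The log2 fold change with its standard error from edgeR for the members that passed the filter on low counts, in 3 comparisons, with filled points for an adjusted p under 0.05. Only Sst in db/db against db/+ (-3.21) and Irx2 in KO_db/db against db/+ (1.28) are filled, and Irx1 was tested in 1 comparison.

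Per kb of exon, the order of the 4 hormone messages was the same in all libraries of a group and differed between groups. The place of Ppy depends on the length used, all annotated exons of a gene joined, which was 0.5 kb for Ppy and 1.494 kb for Gcg. By CPM alone, Gcg was above Ppy in every library. In each of the 3 db/+ libraries the order by CPM per kb was Sst, Gcg, Ppy, Pyy, with group means of 1555, 590, 415 and 217. In both db/db libraries it was Ppy, Gcg, Pyy, Sst, with means of 689, 321, 217 and 171. In both KO_db/db libraries it was Ppy, Sst, Gcg, Pyy, with means of 1029, 781, 548 and 437. Pooled over libraries the ranges of neighbours overlapped in db/+ (Sst 505 to 3154, Gcg 253 to 788). In KO_db/db the range of Ppy, 908 to 1149, was above that of Sst, 694 to 868, and the ranges of Gcg and Pyy overlapped. Ins2 had 208351 CPM per kb in db/+ on average, and Irx2, the most abundant of the 4 transcription factors in each group, had 0.436 there, 1.02 in db/db and 1.06 in KO_db/db.

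Ratios within a library do not depend on how it was scaled. Irx2 gave 1.05, 1.88 and 2.46 counts per 1000 Gcg counts in db/+, 6.67 and 7.61 in db/db, and 3.44 and 5.57 in KO_db/db, so that the 3 groups did not overlap. How often ratios of other genes to Gcg separate the groups was not counted. Ttr ran differently, with 478, 426 and 1783 counts per 1000 Gcg counts in db/+, 3166 and 4923 in db/db, and 600.4 and 887 in KO_db/db, the last within the range of db/+. Genes of the α-cell list thus kept no fixed ratio to Gcg.

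In the δ-cell list, Hhex gave 0.631, 0.903 and 0.755 counts per 1000 Sst counts in db/+, 1.99 and 2.32 in db/db, and 1.37 and 2.14 in KO_db/db. Rbp4 was closer to Sst, with 24.8 to 53.3 counts per 1000 Sst counts in db/+, 37.4 and 55.3 in db/db, and 31.3 and 33.7 in KO_db/db. The db/+ range overlapped with both others, and KO_db/db lay below db/db, while Sst itself ranged from 83.0 to 2274 CPM. Pyy gave 703, 616 and 612 counts per 1000 Ppy counts in db/+, 397.5 and 397.4 in db/db, and 571 and 494 in KO_db/db. Ppy gave 303, 169 and 247 counts per 1000 Gcg counts in db/+ and between 565 and 733 in the 4 libraries on the db/db background. No test was made on the ratios.

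**Figure D4:**
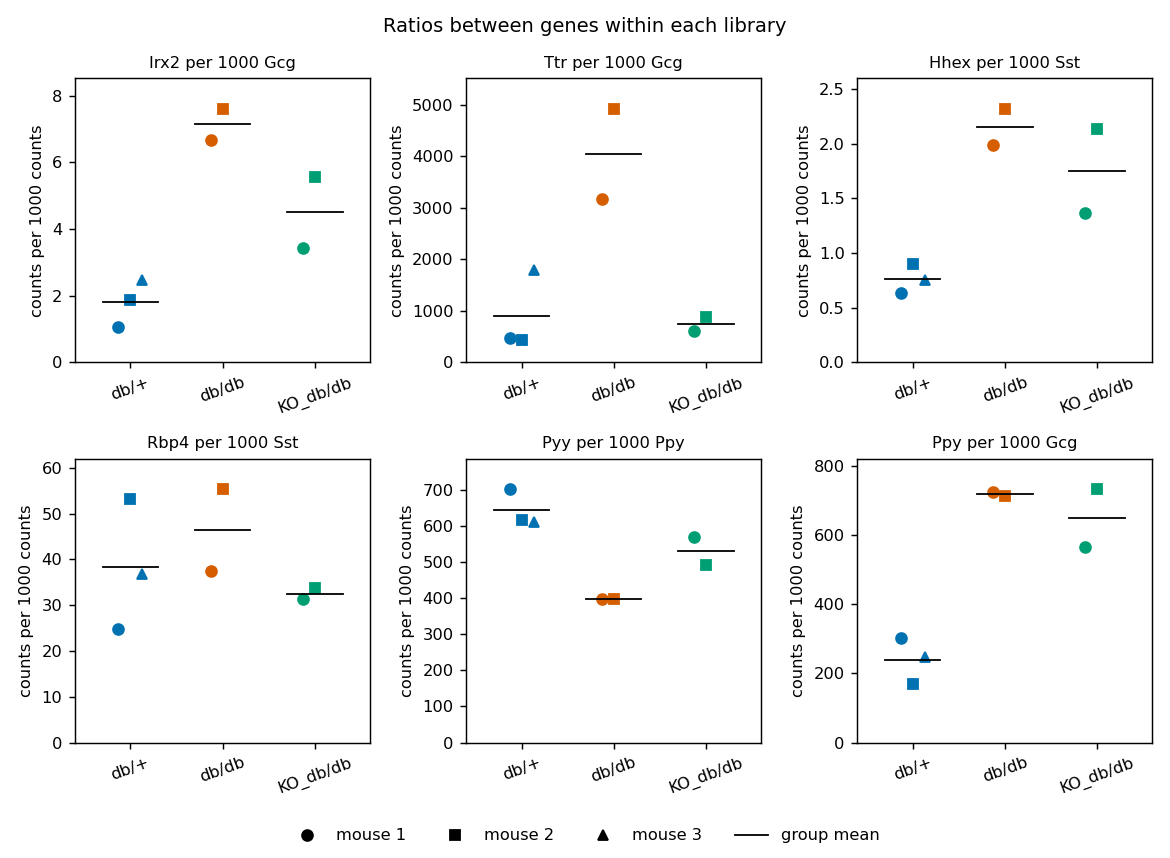
Ratios of counts between genes within each library, per 1000 counts of Gcg, Sst or Ppy, on linear axes from 0, with the mouse number as the symbol and the group mean as a line. Irx2 per Gcg separates the 3 groups, Rbp4 per Sst overlaps between db/+ and the other groups, and Pyy per Ppy is lowest in db/db.

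Other islet transcription factors, many of them shared by several islet cell types, were read from a list. Of 13 other islet factors, 12 were tested. For db/db over db/+, 2 were called higher (Neurog3 and Rfx6) and 4 lower (Fev, Insm1, Neurod1 and Isl1), beside 19.9% and 18% of genes. For KO_db/db over db/+, 3 were higher, among them Neurog3 and Rfx6, and 1 lower (Isl1), beside 20.5% and 17.9%. Between KO_db/db and db/db edgeR called 0. Neurog3, the factor of endocrine progenitors, had 1.64 to 2.54 CPM in db/+, 4.41 and 9.01 CPM in db/db, and 10.9 and 8.78 CPM in KO_db/db. Pax6, needed for the glucagon and insulin genes alike, stayed between 156 and 199 CPM. Pax4, a factor of developing β- and δ-cells, was listed at 0 counts in all 7 libraries.

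Enzymes that process prohormones, a list of 7 genes of which 6 were tested, were read next. Pcsk2, which releases glucagon from its precursor, had between 4389 and 5283 CPM with no call, and Pcsk1, which releases the incretin GLP-1, fell in db/db by 0.78 and in KO_db/db by 0.81 on the log2 scale against db/+ (edgeR adjusted p = 0.0157 and 0.0181). Scg5 and Pam, which help Pcsk2 and amidate peptides, rose in db/db by 0.73 and 0.63 (edgeR adjusted p = 0.00930 and 0.0150). No other gene of the list passed in any comparison. Of all genes tested, 19.9% were called higher and 18% lower in db/db, and 17.9% lower in KO_db/db, each against db/+.

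Of the 12 genes for receptors of the non-β hormones, 6 could be tested. For db/db over db/+, 2 were called higher and 1 lower, beside 19.9% and 18% of all genes tested. Gcgr, the glucagon receptor, had 7.21 to 12.7 CPM in db/+, 35.7 and 21.5 CPM in db/db, and 5.21 and 4.45 CPM in KO_db/db. It rose in db/db against db/+ by 1.43 on the log2 scale (edgeR adjusted p = 0.0105) and fell in KO_db/db against db/+ by 1.11 (edgeR adjusted p = 0.0200), and stood at -2.56 for KO_db/db over db/db (edgeR adjusted p = 0.0585). Glp1r fell in db/db by 0.90 (edgeR adjusted p = 0.0314). Sstr1 was also called higher in db/db, from 3 counts over the 3 db/+ libraries. Sstr3, the most abundant somatostatin receptor message here, had 188 to 276 CPM and was not called, and the 4 NPY-family receptor genes, among them those for pancreatic polypeptide and peptide YY, had at most 0.0972 CPM.

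Other gut and neural peptides included larger fold changes than those of the islet hormones. For db/db over db/+, 4 of the 6 tested (list of 11) were called higher (Cck, Cartpt, Gast and Penk) and 1 lower (Npy). The shares over all genes tested were 19.9% and 18%. Cck, cholecystokinin, had 55.5 and 19.2 CPM in db/db, at most 0.246 CPM in db/+, and 0.122 and 1.65 CPM in KO_db/db. Cartpt had 17.7 and 32.2 CPM in db/db against 0.481 to 1.84 CPM in db/+, and Gast, gastrin, had 3.23 and 3.75 CPM against 0.164 to 0.481 CPM. Npy, neuropeptide Y and a relative of Ppy and Pyy, had 21.5, 8.84 and 2.47 CPM in db/+ and at most 0.489 CPM in the 4 other libraries, and it fell, with log2 fold changes of -6.31 in db/db and -4.95 in KO_db/db (edgeR adjusted p = 0.0114 and 0.0120). Pdyn, prodynorphin, had 46.7 and 61.2 CPM in KO_db/db, 261 and 265 CPM in db/db, and 84.1 to 317 CPM in db/+. It was the only gene of this list called between KO_db/db and db/db (log2 fold change -2.27, edgeR adjusted p = 0.0374), and it also fell in KO_db/db against db/+ by 2.05 (edgeR adjusted p = 0.0241). Over all genes, 0.193% were called lower in the first of these comparisons and 17.9% in the second.

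The β-cell markers give the other side of the sort. For db/db over db/+, 10 of 11 were called lower (all but Iapp), beside 18% of all genes tested. Among them were Ins1 at -1.87 and Ins2 at -0.83, and the median of the list was -1.41. For KO_db/db over db/+, 7 were called lower, beside 17.9% of all genes tested, with a median of -0.78. Between KO_db/db and db/db, Ucn3, a peptide of mature β-cells, was the only 1 called (log2 fold change 1.79, edgeR adjusted p = 0.0459), beside 0.126% of all genes called higher. There the median of the list was 0.70, beside -0.02 over all genes tested.

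Markers of cells outside the endocrine islet were low except for acinar and ductal genes. For KO_db/db over db/+, 18 of 19 tested acinar genes were called higher, beside 20.5% of all genes tested. For db/db over db/+, 1 (Try5) was called higher, beside 19.9% of all genes. Between KO_db/db and db/db edgeR called 0 of 19, although 18 had positive fold changes. The ductal list summed to between 186 and 434 CPM, most of it Krt7, while Cftr had at most 1.14 CPM. Krt7 and Spp1 were called higher than in db/+ both in db/db and in KO_db/db. The endothelial, stellate, macrophage and T-cell lists summed to at most 51.0, 4.09, 74.2 and 0.264 CPM in any library, and Cd3g, which marks T-cells, was at 0 in all 7. Of the endothelial genes, Plvap was called higher in db/db than in db/+, and Kdr higher and Esam lower in KO_db/db than in db/+. Of the macrophage genes, C1qb was called higher in db/db than in db/+, and no stellate or T-cell gene was called. These ductal, endothelial and macrophage calls stand beside 19.9% of all genes called higher in db/db against db/+. In KO_db/db against db/+ the shares were 20.5% higher and 17.9% lower. Within KO_db/db the library with the higher acinar signal also had more Gcg, Sst, Ppy and Pyy by CPM than the other, whereas Hhex and Irx1 were lower in it. Per 10000 counts of Ins1 and Ins2, that library had more Gcg (37.3 against 30.4) and Pyy (12.0 against 11.0). By the same ratio it had less Sst (22.9 against 24.5) and Ppy (21.0 against 22.2). The part of acinar cells or of other islet cells in the levels of the members was not tested.

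The genes most like each member across the libraries were taken by Pearson's r of log2 CPM over 7 libraries, among 9356 or 9357 genes with a mean of at least 5 CPM, as a description of libraries that also share group and mouse. Rbp4 was the second most like Sst (r = 0.972), after Smu1 (0.989) and before Akr1b10 (0.968). Gcg was most like Acadm, Ash2l and Pawr (r = 0.979, 0.944 and 0.907), and Hhex most like Trnp1, Arsk and Smu1 (0.985, 0.958 and 0.935). Ppy and Pyy correlated with each other at 0.93. Slc25a37 and Rnf216 were among the genes most like Ppy (0.942 and 0.935), and Pcdha8 and Cog3 among those most like Pyy (0.973 and 0.963). Irx2 was most like R3hcc1l, Zfyve19 and Rbm27 (0.977, 0.963 and 0.962), and its r with Gcg was 0.09. Some of these genes varied little, with Smu1 between 45.0 and 56.7 CPM, while Rbp4 ran from 4.59 to 56.4 CPM.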

How the data were processed

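Poly-A libraries of sorted β-cells were made with TruSeq chemistry from 2 KO_db/db, 2 db/db and 3 db/+ mice, 1 library per mouse. Per the labels, the authors used bcl2fastq 2.19 and kallisto 0.44.0 on GRCm38, and they deposited estimated counts per gene symbol as whole numbers without normalization. The annotation release is not given in the sources used here. kallisto divides reads that match several transcripts. The gate of the sort for these libraries is not spelled out in the sources used here. Total counts and the floor are in the report, and 0 columns were left unused.

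Counts were tested with edgeR 4.0.16 (R 4.3.3). For every comparison only the libraries of both its groups entered the model, after filterByExpr (minimum count 10) and TMM scaling, with edgeR's quasi-likelihood test and Benjamini-Hochberg adjustment over all genes tested. The standard error is the fold change over the root of F. Levels used TMM over all 7 libraries, and correlations a prior count of 2. Lengths and coordinates are from GENCODE M21, which held all 9 members. Members and gene lists (the markers of α-, δ-, PP-, ε-, β-, acinar, ductal, endothelial, stellate, macrophage and T-cells, other islet factors, prohormone processing, receptors and other peptides) were chosen with earlier results of these data known. Named genes are all members, up to 4 called genes per list and comparison with the largest change, and the 3 genes most like each tested member; others were named after their values were seen. Replicates differed by more than counting noise (chi-square per degree of freedom of 18.4 or more), and the labels name separate mice. Alternatives were RLE scaling, DESeq2 1.42.0 (named in the study's methods), no filter, a joint model of the 7 libraries, a replicate block by mouse number, acinar or insulin genes left out, and each library left out in turn. The fits were tested on simulated data. Some list genes and similar genes are not reported here.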

Additional observations from a re-analysis of the deposited data

How the results depend on the processing

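In KO_db/db against db/db edgeR called 43 genes, and 22 with the replicate block, 818 with a joint model of 7 libraries, 1401 with DESeq2, 1570 without the filter on low counts, and between 0 (without db/db mouse 1) and 225 as 1 library was left out. Of the members 0 were called, 2 with DESeq2 and 2 without the filter, and 0 in every fit that left out a library. In db/db against db/+ 5069 genes and 1 member were called. DESeq2, no filter, the joint model and the replicate block each called 2 members, and leaving out a library gave between 3331 and 4394 genes and between 0 and 2 members. In KO_db/db against db/+ 5081 genes and 1 member were called, with 3 members without the filter and 2 with the replicate block, and between 3060 and 4725 genes and 0 and 2 members without 1 library. The mouse numbers share only a label: deviations of same-numbered mice correlated between -0.108 and 0.0815, and the block moved the log2 fold change of Gcg in db/db against db/+ to -1.31 (adjusted p = 0.00845 from edgeR) and that of Irx2 in KO_db/db against db/+ to 1.11 (adjusted p = 0.108 from edgeR).

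Some fold changes took either sign as 1 library was left out. For KO_db/db over db/db these were Irx1, between -0.885 (without KO_db/db mouse 2) and 1.05, also at -0.106 without db/db mouse 2, and Irx2, between -0.209 (without db/db mouse 2) and 0.391. For db/db over db/+, Pyy lay between -0.487 and 0.578 (without db/+ mouse 1) and was at 0.320 without db/db mouse 2. For KO_db/db over db/+, Gcg lay between -0.508 and 0.211 (without KO_db/db mouse 2), and was at 0.0798 and 0.170 without db/+ mouse 1 or 2. Sst lay between -1.40 and 0.0538 (without db/+ mouse 1), and Hhex between -0.0939 (without db/+ mouse 3) and 1.06, with -0.00996 under the replicate block. RLE scaling and leaving out acinar or insulin genes changed no call of a member. The cause of these moves was not tested. Irx1, Pou3f4 and Ghrl were sparse, with at most 19 counts in a library.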
